A study of Mus musculus with 6 samples.

Results

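The subject of this account is the DNA replication machinery and the enzymes that make DNA precursors, followed as 46 listed genes across 6 mouse expression arrays. The genes were chosen by symbol, and every non-control probe that carries one of the symbols in the array annotation was read. In all, 45 of the 46 symbols are on the array, with 71 probes, out of 27962 gene names and 41174 probes, and 43 genes had a probe that passed the filter on dim signal and were tested. The tested arrays are 3 biological replicates of C4HD cells that received the miR-16 precursor (pre-miR-16), set against 3 that received pre-miR-Control, a scrambled precursor. Both precursors were used at 30 nM for 48 h with the transfection reagent siPORT NeoFX. C4HD is a ductal mammary tumour that arose in female BALB/c mice given medroxyprogesterone acetate (MPA) and is passaged by transplantation into MPA-treated hosts. All 6 cultures came from such tumours, were enriched for epithelial cells by repeated sedimentation and were plated in steroid-stripped serum. They are therefore primary cultures of 1 tumour line, and the labels do not say whether each replicate came from its own host.

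To copy its genome a cell first loads the MCM2-7 helicase onto origins, with the origin recognition complex (ORC), Cdc6 and Cdt1 as loaders, and later activates it with Cdc45 and Mcm10. Polymerase alpha with primase starts each strand, replication factor C loads the sliding clamp PCNA, replication protein A coats single strands, and polymerases delta and epsilon extend them. Ribonucleotide reductase, thymidylate synthase and thymidine kinase supply the deoxynucleotides. Many of these genes are transcribed in waves around the G1/S transition under E2F factors, so that their summed transcript level is widely used as a readout of cycling cells. miR-16 is known for lowering cyclins and other genes of G1 progression in several cell types.

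The molecule added to the cultures and promoters of 5 of the genes are printed to show what the values below refer to. The mature product of the precursor is listed by RefSeq (GRCm38.p6) at chr3:69009918-69009939 on the plus strand and at chr14:61631936-61631957 on the minus strand, with the same letters at both loci. Its seed, bases 2 to 8, is in capitals.
mmu-miR-16-5p: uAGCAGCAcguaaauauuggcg
In the 5 promoters, each 250 bases before to 50 bases after the annotated start, capitals mark a match to TTTCGCGC, TTTGGCGC, TTTCCCGC or TTTGCCGC, letters bound by E2F factors, on either strand. Mcm5 and Mcm6 are shown because their signal differed most between the pre-miR-16 arrays among the MCM2-7 genes, E2f7 and Rrm2 because they had the largest differences between the groups, and Rfc3 as a gene that was lower with pre-miR-16.
Mcm5, chr8:75109259-75109558, plus strand: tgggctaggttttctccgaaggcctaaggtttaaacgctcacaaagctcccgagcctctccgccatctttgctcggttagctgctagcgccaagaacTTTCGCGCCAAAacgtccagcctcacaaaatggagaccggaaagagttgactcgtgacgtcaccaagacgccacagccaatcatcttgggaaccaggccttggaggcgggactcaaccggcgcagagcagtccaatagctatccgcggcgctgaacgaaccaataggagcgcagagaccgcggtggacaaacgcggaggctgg
Mcm6, chr1:128359656-128359955, minus strand: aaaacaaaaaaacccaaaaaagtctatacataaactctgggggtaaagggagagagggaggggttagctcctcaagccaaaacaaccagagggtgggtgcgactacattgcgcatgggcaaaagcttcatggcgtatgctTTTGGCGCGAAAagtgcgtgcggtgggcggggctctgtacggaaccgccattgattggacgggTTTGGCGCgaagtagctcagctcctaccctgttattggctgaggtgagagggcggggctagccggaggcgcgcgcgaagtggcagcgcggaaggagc
E2f7, chr10:110745189-110745488, plus strand: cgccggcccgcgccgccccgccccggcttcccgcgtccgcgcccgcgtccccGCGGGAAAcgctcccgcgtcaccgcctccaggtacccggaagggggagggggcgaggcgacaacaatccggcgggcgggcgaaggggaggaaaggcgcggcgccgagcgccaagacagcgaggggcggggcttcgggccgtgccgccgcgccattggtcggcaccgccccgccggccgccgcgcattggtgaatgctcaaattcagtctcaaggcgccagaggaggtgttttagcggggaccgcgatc
Rrm2, chr12:24708004-24708303, plus strand: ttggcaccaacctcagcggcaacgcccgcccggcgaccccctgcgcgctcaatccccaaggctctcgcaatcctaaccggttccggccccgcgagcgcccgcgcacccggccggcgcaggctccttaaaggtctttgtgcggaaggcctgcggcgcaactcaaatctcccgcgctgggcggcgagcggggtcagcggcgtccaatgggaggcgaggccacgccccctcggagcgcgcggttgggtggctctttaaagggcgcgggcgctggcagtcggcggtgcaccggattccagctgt
Rfc3, chr5:151651159-151651458, minus strand: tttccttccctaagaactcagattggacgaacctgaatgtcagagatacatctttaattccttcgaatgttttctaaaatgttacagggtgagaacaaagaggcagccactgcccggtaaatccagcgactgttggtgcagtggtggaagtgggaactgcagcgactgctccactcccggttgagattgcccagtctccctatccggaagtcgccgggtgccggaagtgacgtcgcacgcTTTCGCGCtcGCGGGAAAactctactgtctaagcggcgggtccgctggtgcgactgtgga
Matches begin 153 and 149 bases before the Mcm5 start and 110, 106 and 47 bases before the Mcm6 start, and in each gene the first pair shares 4 bases. The E2f7 match begins 198 bases before the start. One Rfc3 match begins 10 bases before the start and the other on it, and the Rrm2 window holds none of the 4 strings. A RefSeq promoter was found for 41 of the 46 genes, 51 windows in all. Of these windows, 16 (31.4%) hold an E2F string, against 2.26% of all 32851 promoter windows of the same length. CCAAT, the letters bound by NF-Y, occurs in 58.8% of the members' windows and in 37.4% of all windows. TTTGAA, the letters known as the cell-cycle homology region, occurs in 11.8% of the members' windows and in 17.9% of all windows. These are letter matches and not measured binding.

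Values below are log2 signal relative to the 75th percentile of the same array, so 0 is the 75th percentile and a difference of 1 is a doubling of signal. They compare arrays for 1 probe and do not rank genes. Each array held 43379 spots, of which 57.2% to 64.0% were well above background and none was saturated. Slide 1 carried replicate 1 of either group, slide 2 carried replicate 2 of either group and the third control, and slide 3 carried the remaining pre-miR-16 array alone. Each slide had its own scan session. Luminal epithelial markers, such as Krt8, Krt18 and Cdh1, were well above background on all 6 arrays for 12 of 12 listed genes. Of these 12 luminal genes, 8 were lower with pre-miR-16 and 0 higher (median log2 change -0.53), against 30.4% and 16.8% of all genes. With arrays scaled on spike-in probes 2 were lower, against 6.13% of all genes. Markers of other cells differed between the groups as well. In the pre-miR-16 cultures 12 of 12 fibroblast markers and 10 of 12 macrophage markers were higher, with median log2 changes of 3.84 and 4.85 (3.75 and 2.97 after normexp background correction). Of these, 2 fibroblast and 6 macrophage markers passed the filter through the pre-miR-16 arrays only, which favours a higher signal there. The summed linear signal of the fibroblast list, in units of the 75th percentile, was 331.9 to 432.8 on pre-miR-16 arrays and 39.5 to 46.1 on pre-miR-Control arrays. For the macrophage list the sums were 206.5 to 277.8 on pre-miR-16 arrays and 10.4 to 15.2 on pre-miR-Control arrays. Ptprc, the pan-leukocyte surface phosphatase, stayed at background in the controls. Of 4 endothelial markers none passed the filter, and of 4 T-cell markers 1 did (Cd3e, log2 change -0.05).

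Of the 43 replication genes tested, 6 were higher with pre-miR-16, 6 were lower and 31 did not pass an adjusted p of 0.05. Across all 16293 genes tested, 16.8% were higher and 30.4% were lower, so the share of members that were higher (14%) was near that of all genes and the share that were lower (14%) was below it. The higher genes were Rrm2, E2f7, Cdc45l, Mcm10, Tyms and Rrm1. The lower genes were Orc3l, Rfc2, E2f2, Orc4l, Orc6l and Rfc3. The members' median log2 change was 0.25 (range -0.69 to 3.04), and the median of all genes was -0.17. The groups did not overlap for 8 members that were higher and 8 that were lower, against 20.5% and 39.8% of all genes, and they overlapped for 27 members. Cdc45l and E2f7 passed the dim-signal filter through the pre-miR-16 arrays only, which favours a higher signal there. Their calls are therefore not independent of the filter.

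**Figure D1:**
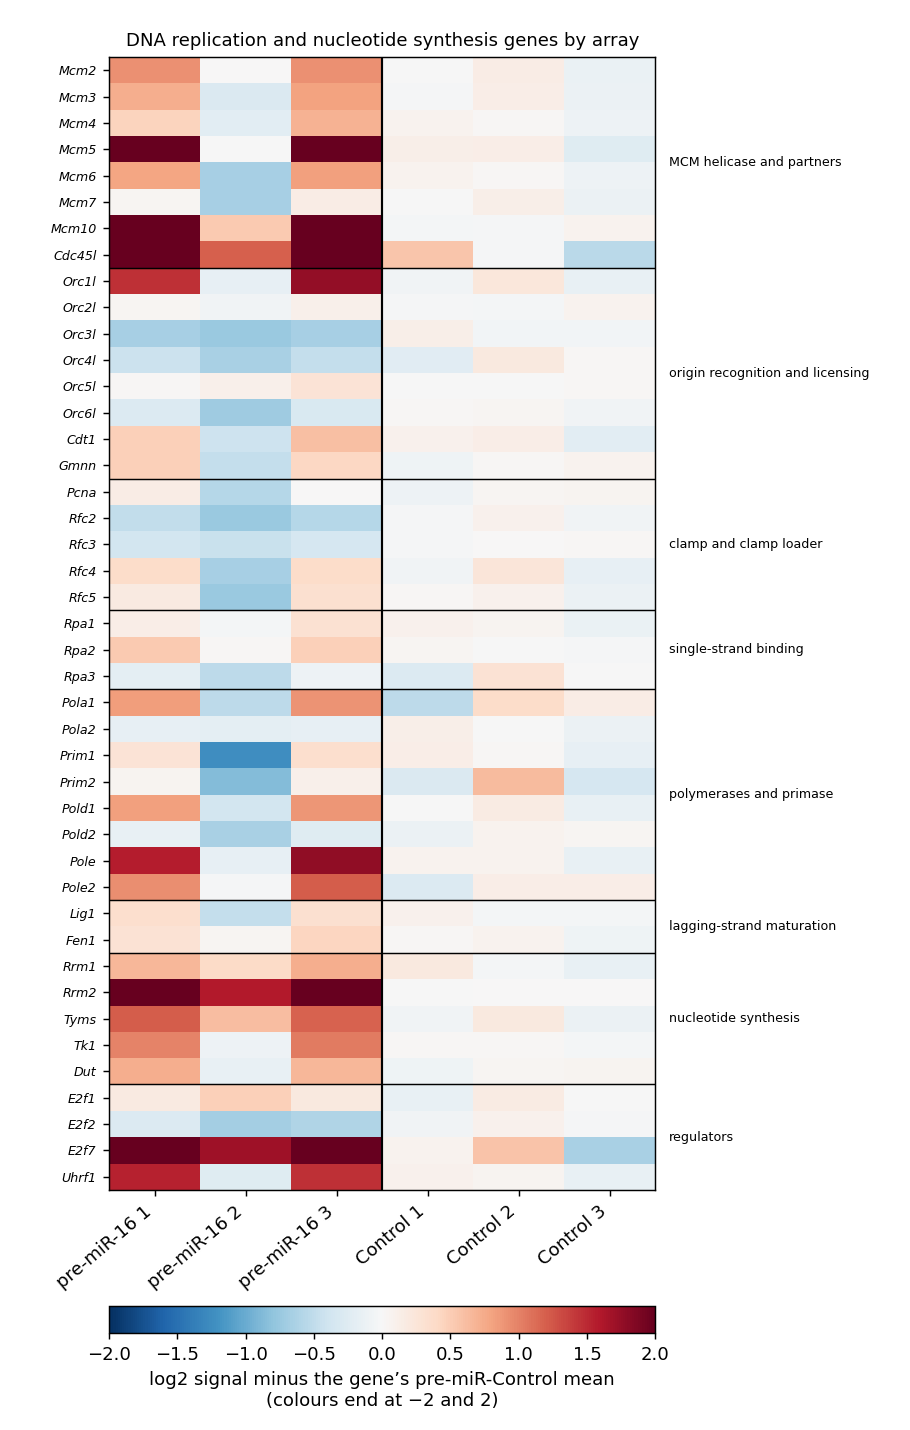
Heat map of the 43 tested genes (rows, grouped by role) on the 3 pre-miR-16 and 3 pre-miR-Control arrays (columns). Colour gives the log2 signal minus the gene's mean over the 3 pre-miR-Control arrays, and pre-miR-16 replicate 2 is bluer than replicates 1 and 3 in nearly all rows (lowest of its group in 41 of 43).

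The 3 pre-miR-16 cultures did not show the same levels of these genes. Replicate 2 was the lowest of its group for 41 of 43 members (95.3%), whereas it was the lowest for 39.8% of all genes tested. Relative to the mean of replicates 1 and 3, replicate 2 differed by a median of -0.84 on the log2 scale over the members and by a median of 0.01 over all genes. In the same order of pre-miR-16 cultures (1, 2 and 3), 31, 8 and 32 members exceeded every control array, and 8, 29 and 8 members lay under every control array. Of all genes, 31.4%, 27.4% and 34% exceeded every control array and 53.3%, 56.5% and 49.3% lay under it. Taken over the members and in replicate order, the median deviation from the control mean came to 0.45, -0.23 and 0.43 in the pre-miR-16 cultures and to -0.01, 0.07 and -0.09 in the controls. Over all genes these medians were -0.17, -0.21 and -0.11 in the pre-miR-16 cultures, so the members' departure from all genes was in replicates 1 and 3, and replicate 2 was near the all-gene value. When arrays were scaled on spike-in probes, the members' medians were 0.66, 0.05 and 0.99 in the pre-miR-16 cultures, against 0.04, 0.08 and 0.45 for all genes, so the sign for replicate 2 turned. Replicate 2 was still the lowest of its group for 39 of 43 members on that scaling, against 36.9% of all genes. The spread was unequal: the gap between replicate 2 and the others was -2.17 for Rrm2 and -2.13 for Mcm5, but between -0.03 and -0.14 for Pola2, Orc5l, Rfc3, Orc3l and Orc2l. With 1 probe per gene, E2f1 was the exception in which replicate 2 was the highest, by 0.29 over the mean of replicates 1 and 3. Replicate 2 was also the highest in the 2 kept reference-transcript probes of Orc3l, which did not stand for the gene. They read -0.80, -0.62 and -0.84, and -1.21, -0.83 and -1.25, so the place of Orc3l among the 41 depends on the probe.

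Leaving out replicate 2 moved the number of members higher but not the number lower. Without pre-miR-16 replicate 2, 24 of the 43 members were higher and 6 were lower, against 21% and 32.4% of all genes in the same fit. The 12 members called with all arrays were among these 30. The 18 that were added were Mcm2, Mcm3, Mcm4, Mcm5, Mcm6, Orc1l, Cdt1, Gmnn, Rpa2, Pola1, Pold1, Pole, Pole2, Lig1, Fen1, Tk1, Dut and Uhrf1. Replicate 2 was the lowest of its group for 41 of the 43 members, against 39.8% of all genes, so leaving it out raises the members' means. The larger count follows in part from that choice and is not independent support for a rise. Within slide 1, which holds 1 array of each group, the members' median difference was 0.40. Within slide 2, which holds pre-miR-16 replicate 2 and 2 controls, it was -0.21. All 12 called members kept their sign within both slides, among them Rrm2 (3.70 in slide 1 and 1.59 in slide 2), Mcm10 (2.18 and 0.50) and Orc4l (-0.21 and -0.76). The pre-miR-16 arrays were each on a different slide, and slide 3, with replicate 3, held no control, so slide and culture cannot be told apart there. On the other slides the members' median deviation was -0.01 for control 1 (slide 1) and 0.07 and -0.09 for controls 2 and 3 (slide 2). The part of slide in the gap between replicates was not tested. With slide as a fixed block, 5 members were higher and 2 lower, against 12.9% and 20.2% of all genes, and with slide as a random block 6 were higher and 6 lower, against 16.8% and 30.5%. The fibroblast list did not share the pattern, with median deviations of 3.78, 4.15 and 3.64 on pre-miR-16 replicates 1, 2 and 3, nor did the macrophage list, with 4.79, 5.09 and 4.67. Luminal markers deviated by -0.51, -0.56 and -0.62. Their summed linear signal was 954.6, 772.8 and 904.9, lowest in replicate 2, and Krt7 among them read 8.11, 6.88 and 8.02. A list of mitosis genes did share the members' pattern, with median deviations of 2.16, 0.58 and 1.93. The part of fibroblast and macrophage RNA in the members' differences was not tested, and in bulk RNA fewer cells with a transcript and less transcript per cell cannot be told apart.

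**Figure D2:**
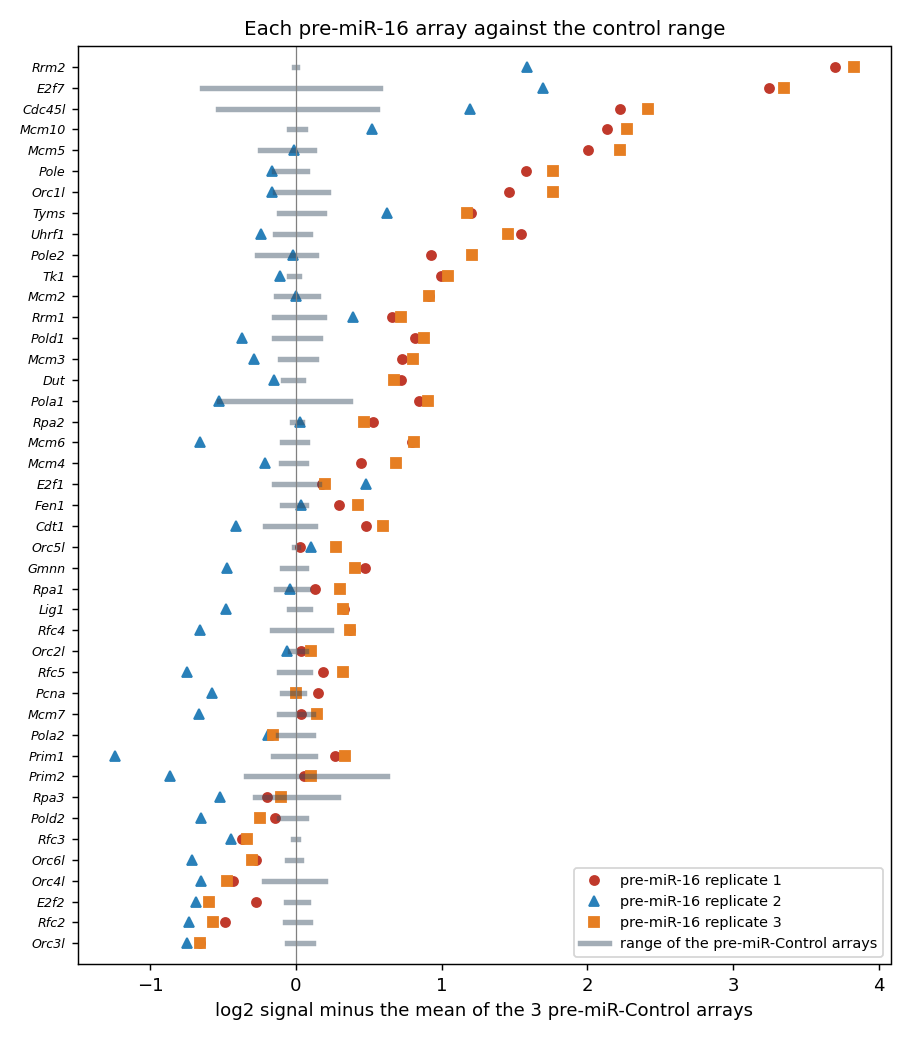
Deviation of each pre-miR-16 array (circle, triangle and square for replicates 1, 2 and 3) from the mean of the 3 pre-miR-Control arrays in log2 units, with the control range as a grey bar, for the 43 genes sorted by their change. The triangle of replicate 2 is to the left of both the circle and the square for all genes but E2f1 and Orc5l.

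The genes for nucleotide synthesis held 3 of the 6 members that rose, and none of the 5 tested fell (median log2 change 0.64), against 16.8% of all genes higher and 30.4% lower. Rrm2, the small subunit of ribonucleotide reductase, whose level follows S phase, read -0.36, -2.47 and -0.23 in pre-miR-16 cultures and -4.07, -4.05 and -4.05 in pre-miR-Control cultures. All 3 pre-miR-16 arrays were above the controls, which differed among themselves by 0.02, and the change was 3.04 ± 0.59 (SE, adjusted p = 0.00771). By limma after normexp background correction the Rrm2 change was 1.87 (adjusted p = 0.00887), so its size depends on that correction. Its fellow subunit Rrm1, the large subunit that carries the active site, read 2.48, 2.21 and 2.54 with pre-miR-16 and 2.01, 1.78 and 1.67 with pre-miR-Control. The groups did not overlap and the change was 0.59 ± 0.14 (SE, adjusted p = 0.0149). Among other settings, this call was lost without pre-miR-16 replicate 1 and without pre-miR-Control replicate 2 or 3. Tyms, thymidylate synthase, read 1.92, 1.34 and 1.89 with pre-miR-16 and 0.64, 0.91 and 0.60 with pre-miR-Control, a change of 1.00 ± 0.19 (SE, adjusted p = 0.00682). Its other kept probe gave the same change, 1.00. These 3 genes stayed above the controls in replicate 2 as well. Tk1, the cytosolic thymidine kinase of dividing cells, read 1.40, 0.30 and 1.45 with pre-miR-16 and 0.43, 0.43 and 0.36 with pre-miR-Control. Dut, the dUTPase that keeps uracil out of DNA, read 2.93, 2.06 and 2.88 with pre-miR-16 and 2.12, 2.25 and 2.26 with pre-miR-Control. For both, replicates 1 and 3 were above all controls and replicate 2 was below them, and neither passed the test (adjusted p = 0.135 and 0.202).

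Of the 8 helicase genes tested, 2 rose and 0 fell by limma at an adjusted p of 0.05, against 16.8% and 30.4% of all genes. At an unadjusted p under 0.05 the same 2 passed, against 8941 of 16293 genes. Cdc45l, which encodes Cdc45, read -2.48, -3.51 and -2.29 with pre-miR-16 and -4.15, -4.72 and -5.24 with pre-miR-Control. It was well above background on 2 of 3 controls and passed the filter through pre-miR-16 alone, and the change was 1.94 ± 0.40 (SE, adjusted p = 0.00969). Mcm10, which helps to activate the loaded helicase, read 0.43, -1.18 and 0.57 with pre-miR-16 and -1.75, -1.72 and -1.64 with pre-miR-Control, a change of 1.64 ± 0.46 (SE, adjusted p = 0.0275). Its groups did not overlap, but it was not called when any 1 array other than pre-miR-16 replicate 2 was left out, nor with slide as a fixed block, but it was with slide as a random block. Of the 6 ring subunits, Mcm5 had the largest difference, with 1.64, -0.38 and 1.86 in pre-miR-16 cultures and -0.25, -0.24 and -0.61 in pre-miR-Control cultures (change 1.40 ± 0.59, SE, adjusted p = 0.0947). Mcm6 read 3.95, 2.50 and 3.97 with pre-miR-16 and 3.23, 3.18 and 3.06 with pre-miR-Control (change 0.32 ± 0.40, SE). In both genes replicates 1 and 3 stood above the controls, and in Mcm6 replicate 2 stood below all of them. Mcm7 had the smallest difference, with 4.0, 3.30 and 4.11 with pre-miR-16 and 3.96, 4.08 and 3.85 with pre-miR-Control (change -0.16 ± 0.22, SE). Mcm2, Mcm3 and Mcm4 differed by 0.61, 0.42 and 0.31, with adjusted p-values of 0.104 to 0.314. Without replicate 2, 5 of the 6 ring subunits, all but Mcm7, were called as higher, against 21% of all genes in that fit. Replicate 2 was the lowest pre-miR-16 array for each of them, so this count follows in part from which array was left out.

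The origin and licensing genes held 3 of the 6 members that fell, and none of the 8 tested rose (median 0.08). That share is near the 30.4% of all genes that were lower, and 1 of the 3, Orc3l, rests on a single probe. Orc4l and Orc6l encode ORC subunits. Orc4l read 2.32, 2.10 and 2.28 with pre-miR-16 and 2.53, 2.95 and 2.77 with pre-miR-Control (change -0.51 ± 0.14, SE, adjusted p = 0.0227). All 4 of its kept probes were lower, with changes of -0.51 to -0.79. Orc6l read 2.78, 2.34 and 2.75 with pre-miR-16 and 3.08, 3.09 and 2.99 with pre-miR-Control (change -0.43 ± 0.14, SE, adjusted p = 0.0471). Orc6l was called in 8 of the 18 alternatives that gave it a test, and Orc4l in 11 of 18. Orc3l depended on the probe. The probe used read -0.43, -0.52 and -0.43 with pre-miR-16 and 0.35, 0.17 and 0.17 with pre-miR-Control (change -0.69 ± 0.09, SE, adjusted p = 0.00217). That probe was designed on a cDNA clone and its annotated coordinates run in the opposite direction to those of the probes for the Orc3l reference transcript. The 2 kept reference-transcript probes gave changes of 0.03 and 0.05, so the fall is a result of 1 probe. Orc1l, the ORC subunit whose level varies most through the cell cycle, had the largest difference of this role, with -3.20, -4.83 and -2.90 in pre-miR-16 cultures and -4.74, -4.44 and -4.81 in pre-miR-Control cultures. Replicates 1 and 3 were above all controls and replicate 2 was below them, and the change of 1.02 ± 0.49 (SE) had an adjusted p of 0.138. By limma after normexp background correction the Orc1l change was 0.30 (adjusted p = 0.205). Orc2l differed least, with 1.13, 1.03 and 1.2 with pre-miR-16 and 1.07, 1.05 and 1.16 with pre-miR-Control (change 0.02 ± 0.09, SE). The loader Cdt1 and its inhibitor Gmnn (geminin) differed by 0.22 and 0.14, with adjusted p-values of 0.535 and 0.681, and Orc5l differed by 0.14 (adjusted p = 0.275).

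Cdc6, the ATPase that brings the helicase to ORC, and E2f8, an E2F family repressor, did not pass the dim-signal filter and have no test. The brighter Cdc6 probe read -2.09, -5.54 and -2.09 in pre-miR-16 cultures and -5.53, -6.27 and -6.65 in pre-miR-Control cultures. It was well above background on pre-miR-16 replicates 1 and 3 and on no control, and its fellow probe behaved alike. The E2f8 probe for the reference transcript read -3.84, -5.98 and -3.48 with pre-miR-16 and -7.47, -7.27 and -7.48 with pre-miR-Control, again well above background on 2 pre-miR-16 arrays and on no control. These 3 probes thus rose above background only in replicates 1 and 3, the same arrays on which most members stood high. The other E2f8 probe, designed on a cDNA clone, read -5.88, -7.44 and -6.43 with pre-miR-16 and -7.54, -2.79 and -5.08 with pre-miR-Control, and was well above background on 2 controls and on no pre-miR-16 array. Rfc1, the large subunit of the clamp loader, is on the array only under its older symbol Recc1, where it read 1.75, 1.57 and 1.96 with pre-miR-16 and 2.10, 1.99 and 2.00 with pre-miR-Control (change -0.27 ± 0.12, SE, adjusted p = 0.114).

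Of the clamp and clamp-loader genes, 2 of the 5 tested fell and none rose, with a median of -0.14. Over all genes 30.4% fell and the median was -0.17, which is near these values. Rfc2, a small clamp-loader subunit, read 4.52, 4.27 and 4.44 with pre-miR-16 and 4.99, 5.10 and 4.93 with pre-miR-Control (change -0.60 ± 0.10, SE, adjusted p = 0.00542). Its other probe was also lower, with a change of -0.45. Rfc3, another small subunit, read -0.20, -0.27 and -0.16 with pre-miR-16 and 0.15, 0.18 and 0.19 with pre-miR-Control (change -0.38 ± 0.08, SE, adjusted p = 0.0109). In both genes the 3 pre-miR-16 arrays lay close together and below all controls, unlike most of the members. Rfc4 read 1.53, 0.50 and 1.53 with pre-miR-16 and 1.08, 1.40 and 0.99 with pre-miR-Control, which left a change of 0.03 ± 0.30 (SE). Rfc5 and Pcna, the clamp itself, differed by -0.08 and -0.14 (adjusted p = 0.826 and 0.586). Pcna read 4.58, 3.85 and 4.43 with pre-miR-16 and 4.33, 4.47 and 4.48 with pre-miR-Control, with replicate 2 the farthest from the controls.

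No gene for single-strand binding, DNA synthesis or strand joining passed limma's test, against 16.8% of all genes higher and 30.4% lower. Of these 13 genes 0 had an unadjusted p under 0.05, against 8941 of 16293 genes. Of the replication protein A subunits, Rpa2 read 0.69, 0.19 and 0.63 with pre-miR-16 and 0.20, 0.15 and 0.13 with pre-miR-Control (change 0.35 ± 0.15, SE, adjusted p = 0.103). Rpa1 read 2.28, 2.11 and 2.45 with pre-miR-16 and 2.23, 2.21 and 2.01 with pre-miR-Control (change 0.13 ± 0.12, SE), and Rpa3 differed by -0.27 (adjusted p = 0.262). Pole, the catalytic subunit of polymerase epsilon, had the largest difference among the 8 polymerase and primase genes, with 0.55, -1.19 and 0.74 with pre-miR-16 and -0.95, -0.95 and -1.18 with pre-miR-Control. Its change of 1.06 ± 0.50 (SE) had an adjusted p of 0.131. Replicates 1 and 3 were far above the controls and replicate 2 was close to the lowest of them. Prim1, the catalytic primase subunit, showed the same gap shifted down, with 1.36, -0.15 and 1.43 with pre-miR-16 and 1.22, 1.12 and 0.93 with pre-miR-Control (change -0.21 ± 0.43, SE). Replicate 2 was the array that departed there, more than 1 log2 unit below every other. The smallest difference was that of Pola2, the accessory subunit of polymerase alpha, with -1.94, -1.96 and -1.93 with pre-miR-16 and -1.65, -1.77 and -1.89 with pre-miR-Control (change -0.17 ± 0.10, SE, adjusted p = 0.190). Its groups did not overlap, although the gap between the nearest arrays was small. The remaining 5, Pola1, Prim2, Pold1, Pold2 and Pole2, differed by -0.35 to 0.71 (adjusted p = 0.109 to 0.623). Of the lagging-strand genes, the flap nuclease Fen1 read 0.52, 0.26 and 0.65 with pre-miR-16 and 0.25, 0.29 and 0.13 with pre-miR-Control (change 0.25 ± 0.13, SE, adjusted p = 0.143). DNA ligase Lig1 read 2.90, 2.09 and 2.89 with pre-miR-16 and 2.66, 2.52 and 2.52 with pre-miR-Control (change 0.06 ± 0.23, SE). In Lig1 replicate 2 was below every control and replicates 1 and 3 above every control.

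The regulators moved in both directions. E2f7, a repressor that is itself an E2F target, read -2.25, -3.80 and -2.15 with pre-miR-16 and -5.43, -4.92 and -6.14 with pre-miR-Control. The probe was well above background on no control array. For each control array the base was the lowest signal above background, or the probe's own signal where that was higher. From this base the mean pre-miR-16 level was 5.33-fold higher, a fold that depends on the background correction. By limma the fitted change was 2.76 ± 0.52 (SE, adjusted p = 0.00704). After normexp background correction the fitted changes of E2f7 and Cdc45l were 0.92 and 0.76, both still called. The other E2f7 probe was at background on all 6 arrays. E2f2, an activator E2F, read 0.05, -0.36 and -0.27 with pre-miR-16 and 0.26, 0.41 and 0.31 with pre-miR-Control (change -0.52 ± 0.13, SE, adjusted p = 0.0197), and was called in 11 of 18 alternatives. E2f1, the best-known activator, read -0.71, -0.41 and -0.69 with pre-miR-16 and -1.04, -0.73 and -0.90 with pre-miR-Control (change 0.29 ± 0.13, SE, adjusted p = 0.118), and its groups did not overlap. The E2f1 transcript was therefore not low in replicate 2, where most other members were. Uhrf1, which guides maintenance methylation to newly made DNA, read 0.09, -1.69 and 0.00 with pre-miR-16 and -1.36, -1.40 and -1.60 with pre-miR-Control, and both of its probes gave a change of 0.92 (adjusted p = 0.157 for the gene).

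**Figure D3:**
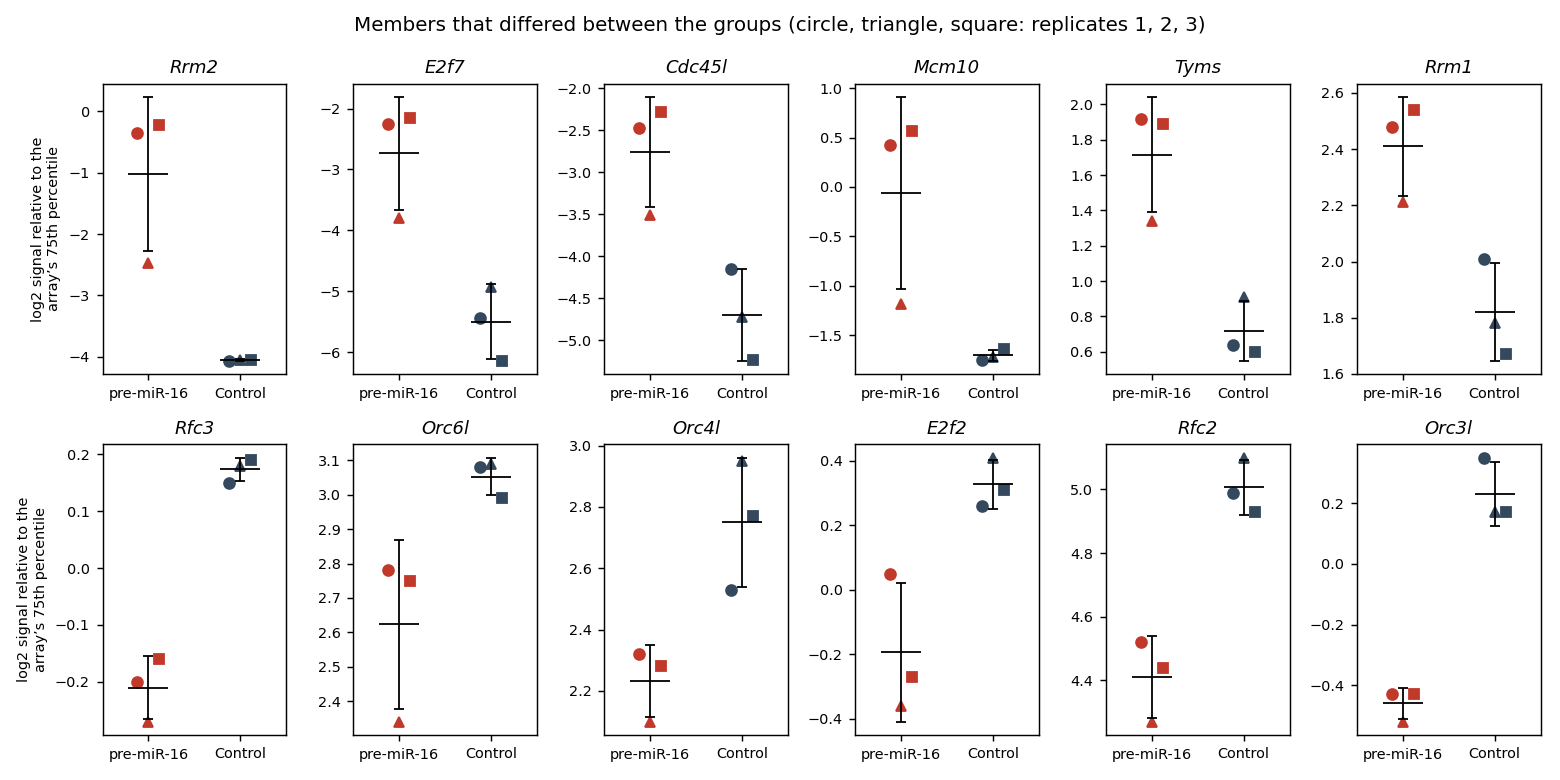
Log2 signal relative to the array's 75th percentile for the 12 genes past an adjusted p of 0.05, pre-miR-16 on the left (red) and pre-miR-Control on the right (dark blue), with the mean and SD (n = 3 each) and axes that differ in scale. In the upper row, the 6 higher genes, replicate 2 (triangle) is the lowest pre-miR-16 array, and in the lower row all pre-miR-16 arrays lie below all controls.

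The E2F strings were set beside the values of the 38 tested members that have a RefSeq promoter. In the 15 with a string, replicate 2 lay a median of -1.09 from the mean of replicates 1 and 3 (range -2.13 to -0.09), and 1 rose and 3 fell. In the 23 without one, the median gap was -0.47 (range -2.17 to 0.29), and 5 rose and 2 fell. Of all genes tested, 16.8% rose and 30.4% fell. Rrm2, with the widest gap, has none of the 4 strings, and Rfc3, with one of the narrowest, has 2. The 2 sets overlap over nearly their whole range.

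The calls of the falls rested on the scaling, while their sign did not change. When the arrays were scaled on 8 spike-in probes in place of the 75th percentile, every change moved up by 0.35, 12 members were higher and 0 were lower, against 22.2% and 6.13% of all genes, and the members' median became 0.61. The 6 members that rose stayed called, joined by Mcm2, Mcm5, Pole2, Rpa2, Tk1 and E2f1. Of the falls, Orc3l became -0.33 (adjusted p of 0.188, and so on in parentheses), Rfc2 -0.24 (0.354), E2f2 -0.17 (0.534), Orc4l -0.16 (0.599), Orc6l -0.08 (0.817) and Rfc3 -0.03 (0.926). Spike-in RNA is added in fixed amount, so this scaling relates signals to the RNA put in the labelling, and the 75th percentile relates them to the other genes. By limma with spike-in scaling, 6 members had a change below 0 and 0 of them an unadjusted p under 0.05.

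**Figure D4:**
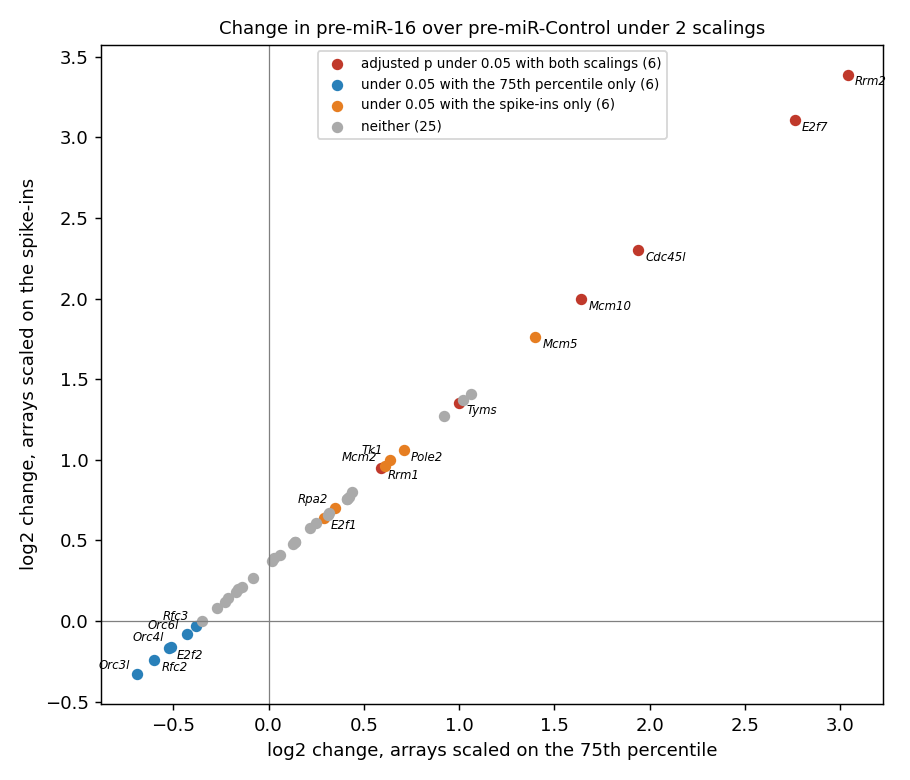
Log2 change of each of the 43 genes with the arrays scaled on the 75th percentile (horizontal axis) and on the spike-ins (vertical axis). All points lie 0.35 above the diagonal, the 6 genes that rose are called under both scalings, and the 6 blue points are called as lower under the 75th percentile only.

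Beyond the 46, a list of 77 further genes of replication and nucleotide synthesis gave 75 tested, of which 12 rose and 17 fell (median log2 change -0.05), against 16.8% and 30.4% of all genes. The 4 genes that rose with the smallest p were Mthfd2, Mthfd1, Pfas and Cad. Other enzymes of these pathways fell, among them Shmt1 (-0.59, adjusted p = 0.00454), Tk2 (-0.59, 0.00594), Gmps (-0.45, 0.0128) and Dguok (-0.47, 0.0143), which are named after their values were seen. Mthfd2, the mitochondrial folate enzyme, read 0.42, 0.24 and 0.02 with pre-miR-16 and -1.06, -1.17 and -1.23 with pre-miR-Control (change 1.38 ± 0.13, SE, adjusted p = 0.000478). Mthfd1, its cytosolic relative, read 1.33, 1.13 and 1.37 with pre-miR-16 and 0.44, 0.44 and 0.40 with pre-miR-Control (change 0.85 ± 0.10, SE, adjusted p = 0.00115). Pfas, of purine synthesis, and Cad, which starts pyrimidine synthesis, rose by 0.57 and 0.47 (adjusted p = 0.0110 and 0.0157). In these 4 genes replicate 2 was above every control, as replicates 1 and 3 were. The falls with the smallest p were Mcm9 (listed as Mcmdc1), a helicase of recombination, Dctd, which deaminates dCMP, Rnaseh2c, a ribonuclease H2 subunit, and Asf1a, a histone chaperone. Mcm9 read -2.0, -1.91 and -1.91 with pre-miR-16 and -0.84, -0.96 and -1.02 with pre-miR-Control (change -1.0 ± 0.09, SE, adjusted p = 0.000450). Dctd read -1.74, -1.51 and -1.81 with pre-miR-16 and -0.85, -0.69 and -0.85 with pre-miR-Control (change -0.89 ± 0.11, SE, adjusted p = 0.00172). Rnaseh2c and Asf1a differed by -0.69 and -0.49 (adjusted p = 0.00271 and 0.00408). With spike-in scaling 18 of the 75 were higher and 2, Mcm9 and Dctd, were lower.

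Of 20 mitosis genes 19 were tested, and 11 rose and 0 fell by limma at an adjusted p of 0.05, against 16.8% and 30.4% of all genes (median log2 change 1.55, against -0.17). At an unadjusted p under 0.05 there were 15 of 19, against 8941 of 16293 genes. With slide as a fixed block 7 rose, and with normexp correction 14 rose with a median of 1.08. Top2a, the topoisomerase of chromosome condensation, read -1.11, -3.21 and -1.18 with pre-miR-16 and -3.77, -4.49 and -4.90 with pre-miR-Control (change 2.55 ± 0.62, SE). With normexp correction the Top2a change was 1.43. Aurkb, a kinase of chromosome segregation, read -2.27, -4.50 and -2.13 with pre-miR-16 and -5.46, -5.19 and -5.79 with pre-miR-Control. Aurkb was well above background on no control array and passed the filter through pre-miR-16 alone. Counted as for E2f7, its mean was 4.80-fold higher, a fold that depends on the background correction (fitted change 0.94 with normexp correction). Replicate 2 was the lowest pre-miR-16 array for 19 of the 19 mitosis genes. It was above every control for 12 of them and below every control for 1, Birc5, named after its values were seen.

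**Figure D5:**
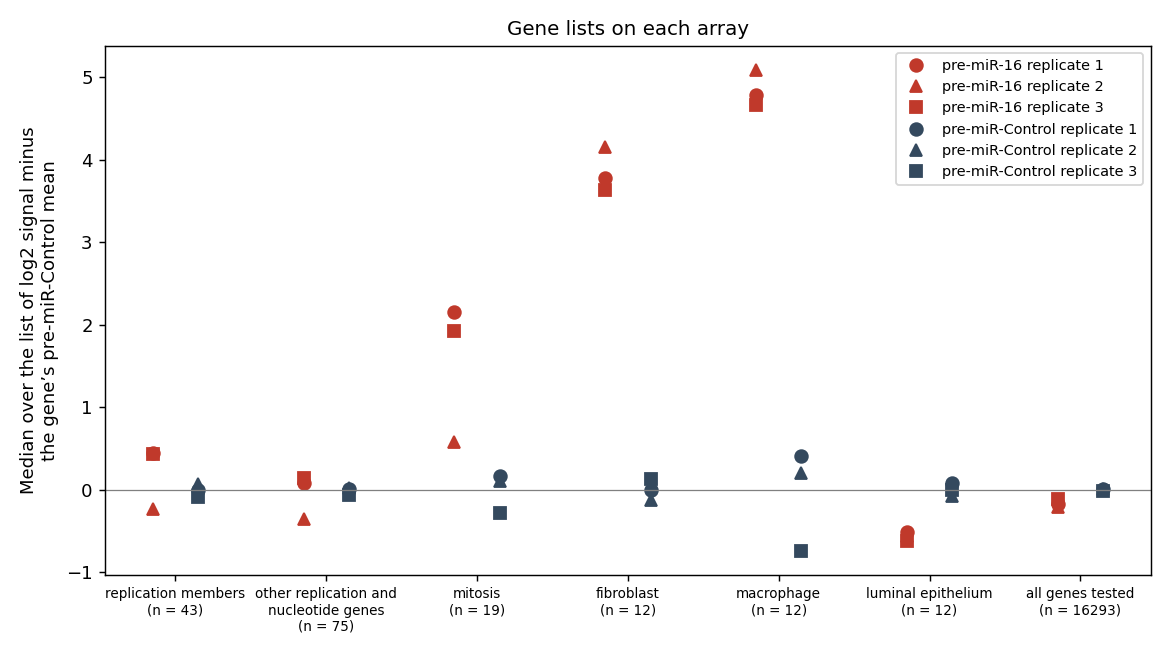
Median over each gene list of the log2 signal minus the gene's pre-miR-Control mean, by array (pre-miR-16 in red on the left, pre-miR-Control in dark blue on the right; circle, triangle and square are replicates 1, 2 and 3). The triangle of pre-miR-16 replicate 2 is lowest for the replication, other pathway and mitosis lists, and highest of its group for the fibroblast and macrophage lists.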

How the data were processed

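Total RNA (300 ng per labelling, per the labels' protocols) was measured on 6 single-colour (Cy3) Agilent arrays. The authors deposited scanner intensity values made with Agilent Feature Extraction, version 9.5.3.1 per the file headers, with probe positions on mm7. The authors' deposited value table holds log2 values, whose centring is unstated. Its columns for pre-miR-16 replicates 1 and 2 each followed the other's scanner file (Spearman rho 0.946 and 0.9436 with their own, 0.9651 and 0.9698 with the other's). Replicate numbers here are those of the scanner files.

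Processed signal was taken as log2 minus each array's 75th percentile. Control and outlier spots were left out, and spots of a probe were averaged. A probe entered if, on each of the 3 arrays of either group, the scanner software flagged a share of 0.5 or more of its spots as clearly above background, and the brightest kept probe stood for its gene. The 3 arrays of each group were compared with limma 3.58.1 in R 4.3.3 (lmFit, eBayes; two-sided), with Benjamini-Hochberg adjustment over 16293 genes and calls at 0.05. The fit was tested on simulated data with independent noise of the same spread in both groups. That test does not cover members with unequal spread, such as Rrm2 (SD 1.26 with pre-miR-16 and 0.01 with pre-miR-Control). Promoters and miRNAs are from RefSeq.

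Every member is accounted for. Named with all arrays are the called members, the largest and smallest change of each role, members whose probes disagreed and the strongest other pathway genes; Mcm6, Tk1, Pcna, Prim1 and Uhrf1 were added after their values were seen. Members and lists were chosen with earlier results of these data known. The labels call the samples biological replicates without naming their source, so p-values measure the spread between these samples. The number of arrays limits precision.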

Additional observations from a re-analysis of the deposited data

How the results depend on the processing

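The counts were recomputed under 20 alternatives. No member that was called changed direction under any of them. Against 6 members lower there were 0 with spike-in scaling, 2 with slide as a fixed block, 2 at an adjusted p under 0.01 and 3 with no filter on dim probes. Members higher numbered 12 with spike-in scaling. Leaving out each array in turn gave 4 to 24 members higher, with 24 only without pre-miR-16 replicate 2, 2 to 6 lower, and a median change of 0.07 to 0.44. Within slide 2 the median was -0.21. Other pathway genes higher numbered 5 with no filter, 5 with slide as a fixed block, 2 at an adjusted p under 0.01 and 4 to 23 with an array left out. Other pathway genes lower numbered 2 with spike-in scaling, 9 at an adjusted p under 0.01 and 10 to 17 with an array left out. With the replicate block, members lower numbered 2 and other pathway genes higher 6, while members higher stayed at 6. Same-numbered arrays deviated with correlations of -0.09, -0.02 and 0.00 over genes, so the numbers were not taken as pairs. A block with pre-miR-16 replicates 1 and 2 exchanged, added after seeing the data, gave 6 higher and 5 lower. Of these 6, 5 were called in the main fit: Rrm1 was lost and Pole2 was gained. Rrm2, Tyms, E2f7 and Cdc45l were called in every alternative that gave them a test. E2f7 and Cdc45l entered through the pre-miR-16 arrays only, so their repeated calls are not independent of the filter. Neither had a test when only probes well above background on all 6 arrays were used. Of 18 alternatives with a test, Rrm1 was called in 15, Rfc3 in 14, Mcm10, Orc4l and E2f2 in 11 and Orc6l in 8. These 18 leave out the exchanged block, where Rrm1 and Orc6l were lost. They also leave out the adjusted p under 0.01, where none of these genes was called. Rfc2 was lost with spike-in scaling alone, and Orc3l with spike-in scaling and with the mean of its probes. Where a call was lost under an alternative, the cause was not tested. Signal over background limits Cdc6, E2f8, E2f7 and Cdc45l. The fitted changes of Rrm2, Orc1l and Top2a also shrank with normexp correction.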
